A study of Mus musculus with 8 samples.

Results

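Intergenic peaks of RNA bound by MBD5 and MBD6 were examined in mouse embryonic stem (mES) cells. A peak was a member when the base 15 nt inside its 5′ end lay in no gene body of GENCODE release M21 on the same strand. By this rule 667 of 29555 peaks were members, which is 2.26%, and they merged into 330 loci. The peaks came from crosslinking and immunoprecipitation with sequencing (CLIP-seq), in which ultraviolet light fixes a protein to its RNA and the bound fragments are recovered with an antibody. The series holds 8 samples, of which the 4 CLIP libraries were analysed here, 2 for Flag-MBD5 and 2 for Flag-MBD6, and the 4 digested inputs were not analysed here. All cells were WT mESCs that stably carried a human MBD5 or MBD6 coding sequence with a Flag tag, brought in by lentivirus. They were grown in serum with LIF, CHIR99021 and PD0325901 and selected with hygromycin B. The labels call these overexpression lines, the level of the transgene was not measured here, and the sources used here do not say whether a line was 1 clone. The labels also give embryos as the tissue. The characteristics of the CLIP samples and the study's methods give a Flag antibody, whereas the extraction protocol in the labels gives an antibody to MBD6. Peak lists hold no cell type markers, so the labelled cell type was not checked.

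MBD5 and MBD6 carry a methyl-CpG-binding domain and associate with the BAP1 deubiquitinase complex, which removes ubiquitin from histone H2A. RNA from outside annotated genes can have several sources. Transcription often runs past the annotated end of a gene, both strands of many genes are transcribed, retrotransposons and satellite repeats make chromatin-associated RNA, and transfer RNA (tRNA) genes are listed in some annotations and not in others. Processed pseudogenes are copies of spliced mRNAs that were reverse-transcribed and inserted elsewhere, and a short read can match such a copy and its parent mRNA equally well.

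The members were separated into 3 classes. The antisense class held 193 peaks at 96 loci, which lay over a gene of the opposite strand. The downstream class held 101 peaks at 56 loci within 5 kb past the end of a same-strand gene. The rest comprised 373 peaks at 178 loci. Of the antisense peaks, 35 also lay within 5 kb past a gene end and were counted as antisense only. No locus mixed classes. The antisense class was 28.9% of members (95% Wilson interval 25.6% to 32.5%), the downstream class 15.1% (12.6% to 18.1%) and the rest 55.9% (52.1% to 59.6%). All intervals cover counting error only.

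Sequence was at hand only where a member touched a GENCODE exon or a RefSeq promoter window, which was the case for 116 peaks at 52 loci. The leading pseudogene loci are shown against the mRNA they match best, since the likeness bears on where their reads came from. The letters are the first 30 nt of the pseudogene within the peak, 5′ to 3′, except for Zfp42-ps1, where the 30 nt are placed around the first difference, and capitals mark a difference.
Gm4617: tgtcagacgcggcagtggataccagctccg
Ptma: tgtcagacgcggcagtggataccagctccg
Gm9800: atgtcagacgcggcagtggataccagctcc
Rpl38-ps2: atgcctcggaaaattgaggagatcaaggac
Rpl38: atgcctcggaaaattgaggagatcaaggac
Zfp42-ps1: ggcaaagacaagtggTcagaaagggccggg
Zfp42: ggcaaagacaagtggCcagaaagggccggg
The Gm4617 and Rpl38-ps2 windows were identical to Ptma and Rpl38, and the Gm9800 window was the same stretch of Ptma begun 1 base earlier. Over 213 aligned nt Rpl38-ps2 was 100% identical to Rpl38, and over 229 nt Zfp42-ps1 had 3 differences from Zfp42.

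Further windows show the 5′ ends of other members, with the base before the peak in capitals. RNase T1, which was used to trim the RNA, cuts after G.
n-THgtg7: Gccgtgatcgtatagtggttagtactctgc
Gm10801 antisense: Gacgtggaatatggcaagaaaactgaaaat
Gm10800 antisense: Cactaaaaaacgtgaaaaatgagaaatgca
CT010467.1 antisense: Ccggccgggggtcgggcgccggcggctttg
In the first window the capital is also the first base of the tRNA gene, since that peak of the second Flag-MBD5 library began 1 nt inside it. These windows lay at chr3:96452495-96452524 (plus strand), chr2:98662324-98662353 (minus), chr2:98667097-98667126 (plus) and chr17:39846619-39846648 (plus) in mm10. The first is the 5′ end of a histidine tRNA gene, the next pair lies opposite Gm10801 and Gm10800 on chromosome 2, and the last lies opposite an annotated ribosomal RNA. The last also lies in the RefSeq pseudogene Rn18s-rs5, whose strand was not given.

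The share of members was alike in the 4 libraries. In the first Flag-MBD5 library 118 of 5362 peaks were members, which is 2.20% (95% Wilson interval 1.84% to 2.63%). In the second it was 136 of 5388 peaks, or 2.52% (2.14% to 2.98%). The Flag-MBD6 libraries had 203 of 9218 peaks, or 2.20% (1.92% to 2.52%), and 210 of 9587 peaks, or 2.19% (1.92% to 2.50%). All 4 intervals overlapped. Read depth, estimated from the lowest background rate on each strand, was 478790 and 500143 reads with Flag-MBD5 against 983918 and 1111742 reads with Flag-MBD6. At the loci with a peak in both replicates the summit reads differed by less than sampling noise, with a chi-square per locus of 0.461 at 93 Flag-MBD5 loci and 0.566 at 154 Flag-MBD6 loci, where independent Poisson sampling gives 1. These loci had passed the peak threshold in both replicates, identical reads had been collapsed, and peak calling limited the reads kept at the same position. The part of each in the low values was not tested. Each protein was counted as 1 sample as the more cautious choice, values are given per library as a description, and no test between the proteins was run. With 2 libraries against 2, an exact permutation test could not go below p = 0.33.

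**Figure D1:**
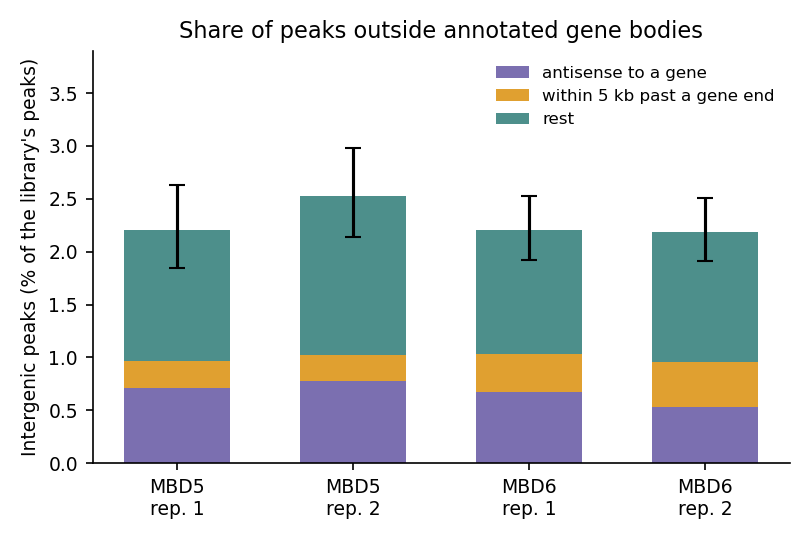
Share of each library's peaks (vertical axis, percent) that lay outside same-strand gene bodies, stacked by class, with 95% Wilson intervals of the total. The totals sit between 2.19% and 2.52% and all intervals overlap.

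The downstream class was a larger part of the Flag-MBD6 members. It held 14 of 118 and 13 of 136 peaks in the Flag-MBD5 libraries and 33 of 203 and 41 of 210 peaks in the Flag-MBD6 libraries, or 11.9%, 9.56%, 16.3% and 19.5% of members. The antisense class held 38 and 42 Flag-MBD5 peaks and 62 and 51 Flag-MBD6 peaks, which is 32.2%, 30.9%, 30.5% and 24.3% of members. The rest held 66, 81, 108 and 118 peaks, between 53.2% and 59.6% of members. For the downstream class both Flag-MBD6 shares were above both Flag-MBD5 shares, for the antisense class both were below, and those of the rest overlapped. Depth differed between the proteins in the same direction and cannot be told apart from the protein.

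The median fold enrichment of members was below that of other peaks in each of the 4 libraries. Fold enrichment is a deposited value, the summit signal divided by the local background. Its median among members was 9.99 and 9.69 in the Flag-MBD5 pair, then 9.83 and 9.42 in the Flag-MBD6 pair, against 10.4, 10.5, 10.9 and 11.2 among all other peaks. The largest fold enrichment of a member was 54.0, 65.6, 53.1 and 54.1 in the same order, against 147, 109, 125 and 118 among other peaks. Members had a median of 15.5, 16, 17 and 18 reads at the summit, against 16, 16, 20 and 21. They held 2.89%, 3.03%, 2.32% and 2.17% of all summit reads. The median of the deposited −log10 q was 15.2, 14.9, 14.6 and 14.2 among members, against 14.7, 15.1, 17.2 and 18.1. It was thus higher among members in the first Flag-MBD5 library only. The median width of members was between 155.5 and 160 bp, against 164 to 168 bp, and between 27.6% and 38.2% of members had the minimum width of 150 bp, against 20.1% to 26.6% of other peaks.

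The loci fell into 7 groups by what the annotations place at or beside them. RefSeq, a second gene catalogue on the same assembly, was used beside GENCODE for this purpose. The groups were formed after the loci had been seen and were applied in the order given here. A nuclear tRNA gene of RefSeq was overlapped by 20 loci, 30 ran on into a same-strand GENCODE gene, 43 began in a RefSeq pseudogene and 35 began in another RefSeq gene. Among the others, 21 lay within 5 kb past a gene end, 64 were antisense to a gene and 117 had none of these features. Of the 30 loci that ran into a gene, 22 had a peak in all 4 libraries, whereas this was so for 22 of the 117 loci without any feature, for 12 of the 64 antisense loci and for 2 of the 20 tRNA loci. Peaks that began inside the gene ahead are part of the first count, and with intergenic peaks alone 11 of the 30 loci had one in all 4 libraries, while the other 3 counts stayed at 22, 12 and 2. The median fold enrichment of the peaks was 15.4 in the group that ran into a gene, 7.11 at tRNA genes and between 8.28 and 10.1 in the other groups.

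**Figure D2:**
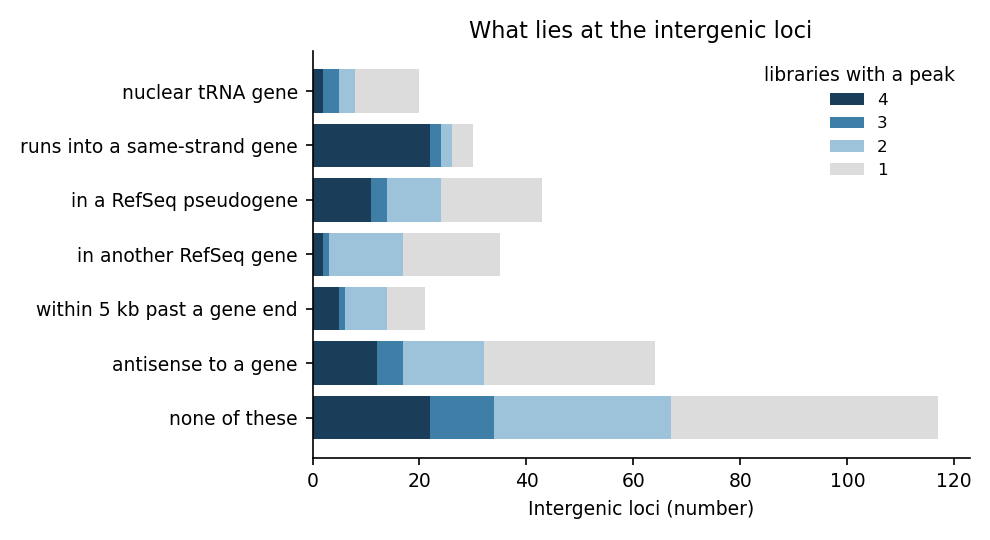
Number of intergenic loci (horizontal axis) in each of the 7 annotation groups, split by how many of the 4 libraries had a peak there. The loci that run into a same-strand gene have a peak in all 4 libraries at 22 of 30 when peaks that begin inside the gene are counted, as here, and at 11 with intergenic peaks alone, and the largest group, with 117 loci, has none of the listed features.

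Processed pseudogenes were the commonest gene just ahead of a member. Of the 76 peaks that ran on into a same-strand gene, 58 ran into a processed pseudogene, 8 into a gene annotated as a miRNA and 7 into a protein-coding gene. The distance from the position used for the rule to the start of that gene was 1 to 160 nt, with a median of 21 nt over the 30 loci. Of the 15 loci within 20 nt of the next gene start, 14 had a processed pseudogene there, and of the 260 loci more than 5000 nt away 76 did. Since the pseudogene models of Rpl38-ps2 and Gm9800 open with the start codon letters atg shown above, their peaks began in sequence before the copied start codon. At 15 loci of all groups, some of the libraries had only a peak whose position lay inside a gene body and thus counted as genic, as at Rpl38-ps2.

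**Figure D3:**
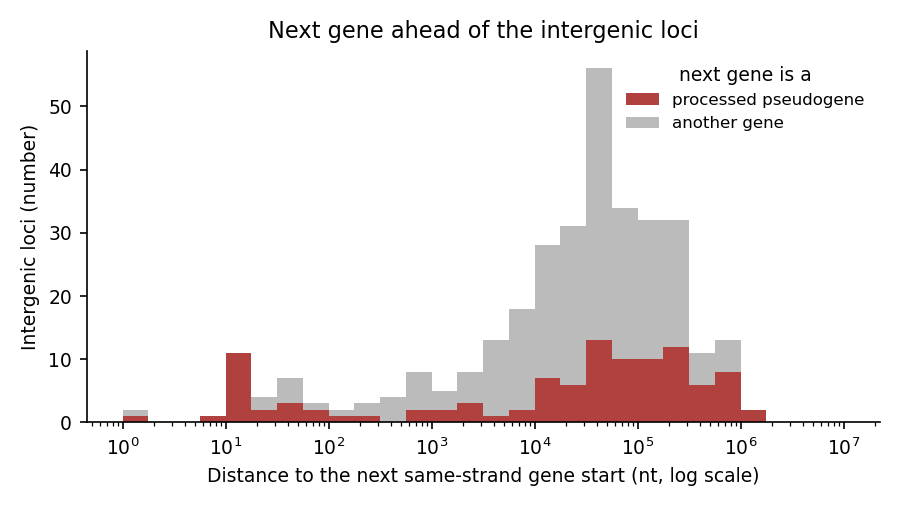
Number of intergenic loci (vertical axis) by distance to the next gene start on the same strand (horizontal axis, nt, log scale), with processed pseudogenes in red. At distances of up to 20 nt, 14 of 15 loci stand before a processed pseudogene.

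Sequence was at hand for 21 loci that ran into a processed pseudogene, and each matched a transcript of a protein-coding gene. The identity was between 83.9% and 100%, with a median of 99.1%, and it was 98% or more at 15 loci. Of 4289 windows of 30 nt in these peaks, 3182 occurred without any difference in the matched gene, which is 74.2%. The 19 matched genes included Ptma, which encodes the nuclear protein prothymosin alpha, the ribosomal protein genes Rpl38, Rpl39, Rps6, Rps20 and Rps25, the translation factor gene Eef1a1, the actin gene Actg1, the splicing regulator genes Hnrnpa1 and Hnrnpk, the glycolytic enzyme gene Pkm and Zfp42, which encodes the pluripotency marker REX1. Of these 19 genes, 17 had a peak of their own in at least 1 library and 12 in all 4, and the share over all protein-coding genes was not computed. Higd1a and Sat1 were without one. The values of the pseudogene loci thus cannot be told apart from those of the matched mRNAs wherever the reads fit both.

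The highest values of this group were at the copies of Rpl38, Ptma and Zfp42. Values at a locus are those of any overlapping peak, also a peak that began inside the gene ahead. The Rpl38-ps2 locus (chr6:140746878-140747200, minus strand, mm10), which also lies antisense to Gm11077, had a fold enrichment of 44.7 and 41.9 in the Flag-MBD5 pair against 45.3 and 23.0 in the Flag-MBD6 pair. Its summit held 55, 52, 68 and 72 reads, and Rpl38 itself had at most 13.9 and 9.15 fold in the Flag-MBD5 pair against 25.4 and 26.0 fold in the Flag-MBD6 pair. The Gm4617 locus (chr3:124385641-124386293, plus strand) had 20.4, 45.8, 30.8 and 39.8 fold, with 85, 89, 136 and 140 reads. The second Ptma copy, Gm9800 (chr14:8799708-8800360, minus strand), had 13.1, 19, 39.7 and 23.7 fold, with 43, 42, 91 and 87 reads. Scaled to depth, the log2 of Flag-MBD6 over Flag-MBD5 reads was −0.43 at Gm4617 and −0.03 at Gm9800, and the fold enrichments of the proteins overlapped at Gm4617 and did not at Gm9800. Ptma had a fold enrichment of at most 16.7, 12.6, 15.1 and 12.5 in the 4 libraries.

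The Zfp42-ps1 locus (chr15:93679397-93679675, minus strand) was higher in the Flag-MBD6 libraries, also in depth-scaled reads, by 0.30 on the log2 scale. Its fold enrichment was 21.2 and 19.8 with Flag-MBD5 against 40.5 and 34.4 with Flag-MBD6, with 29, 35, 84 and 84 reads, and the values of the proteins did not overlap. Zfp42 itself had 17.9 and 29.6 fold with Flag-MBD5 against 40.1 and 40.9 fold with Flag-MBD6. Of 224 windows of 30 nt in the Zfp42-ps1 peak, 138 were identical in Zfp42, which is 61.6%. A peak 707 nt past the end of Zfp42 (chr8:43294218-43294371, minus strand) was found only in the first Flag-MBD6 library, at 9.45 fold, and another, 5167 nt past the end (chr8:43289744-43289911), was called in 3 libraries at 7.53 to 11 fold.

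At 4 of the loci the gene ahead was protein-coding. The Supt6 locus (chr11:78245815-78246060, minus strand) stood 40 nt before the start of Supt6, which encodes the transcription elongation factor SPT6, and opposite an exon of Sdf2. Its fold enrichment was 11.2 and 16.6 with Flag-MBD5 against 23.0 and 25.1 with Flag-MBD6, with 13, 20, 34 and 39 reads. At Spry2, which encodes an inhibitor of receptor tyrosine kinase signalling, the locus (chr14:105896496-105896919, minus strand) had 9.22, 9.29, 12 and 15.1 fold with 18, 20, 32 and 46 reads. At both, the fold enrichments of the Flag-MBD6 libraries were above those of the Flag-MBD5 libraries, whereas the depth-scaled reads differed by 0.05 at Supt6 and −0.07 at Spry2 (log2 of Flag-MBD6 over Flag-MBD5). Edn1 and Gucy1a2 had such a peak in 1 library each. Only 7 intergenic peaks in all ran into a protein-coding gene. Thus not all values at Supt6 and Spry2 came from intergenic peaks, and some were of peaks that began inside the gene.

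Nuclear tRNA genes were nearly all intergenic by this rule, since the GENCODE models used here put no gene body over most of them. Of 37 peaks over nuclear tRNA genes of RefSeq, 35 were members, at 20 loci. Genes for histidine tRNA with the anticodon GTG accounted for 15 peaks at 8 loci, and genes for glutamate tRNA with CTC for 11 peaks at 3 loci. The other 9 peaks lay at genes for aspartate, glycine, leucine and arginine tRNAs. RefSeq gave no strand for these genes in the table used, so the strand of the peak was taken.

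The histidine peaks began at the end of the tRNA gene. Of the 15, 10 began at its first base and 14 within 1 nt of it, whereas the glutamate peaks began 12 to 25 nt inside the gene. The 5′ end of the n-THgtg7 gene is the window printed above. Its peak (chr3:96452495-96452653, plus strand) was found in both Flag-MBD5 libraries, at 10.7 and 11.9 fold with 14 and 16 reads, and in neither Flag-MBD6 library. The histidine peaks had between 6 and 23 reads, at 5.04 to 14.2 fold, and none of the 8 loci had a peak in all 4 libraries. The glutamate loci were the more regular. At n-TEctc9 the fold enrichment was 6.25, 6.62, 6.47 and 6.48, with 53, 51, 50 and 48 reads, so that the 4 libraries gave nearly the same number of reads at unequal depth. tRNA genes of one kind are near-identical copies, so the reads could have come from any of them.

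**Figure D4:**
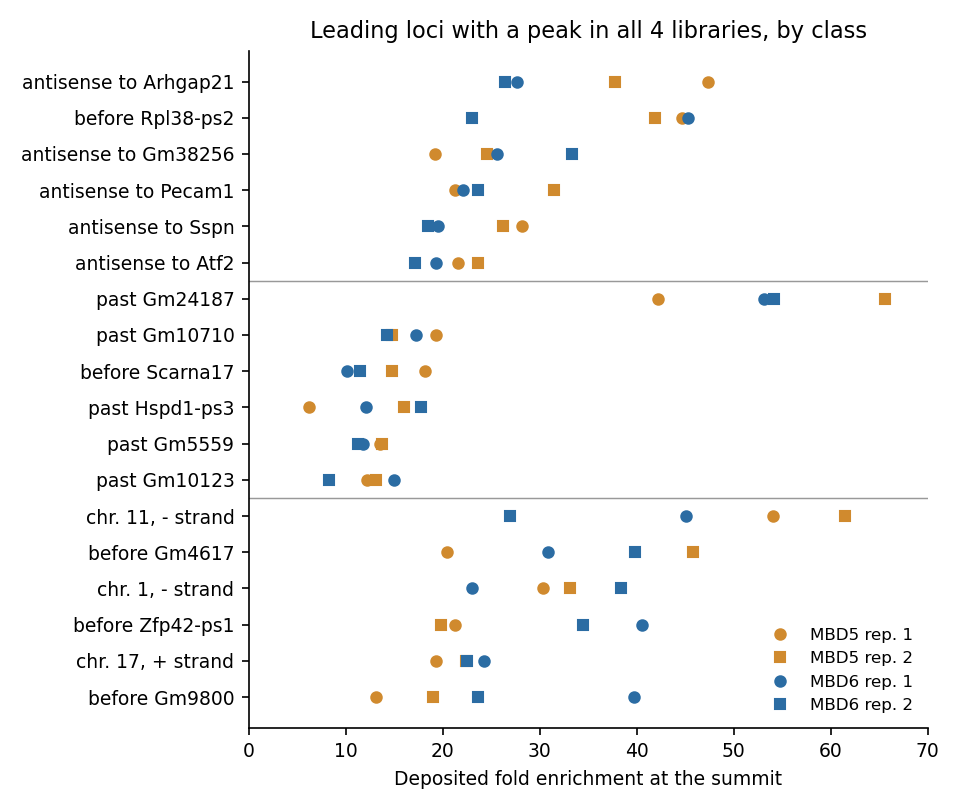
Deposited fold enrichment at the summit (horizontal axis) of the 6 leading loci of each class with a peak in all 4 libraries, antisense above, downstream in the middle and the rest below, with one point per library. Values reach 65.6 past Gm24187, and at Zfp42-ps1 both Flag-MBD6 points lie above both Flag-MBD5 points.

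The downstream class was led by 1 locus. It lay at chr13:9834191-9834423 (minus strand), 63 nt past the end of Gm24187, which is annotated as a miRNA, and had a fold enrichment of 42.2 and 65.6 in the Flag-MBD5 pair against 53.1 and 54.1 in the Flag-MBD6 pair. Its summit held 91, 82, 104 and 112 reads. The next downstream locus, 1110 nt past the lincRNA Gm10710 (chr3:83124016-83124181, minus strand), had 19.3, 14.8, 17.2 and 14.3 fold with 79, 76, 75 and 83 reads. At both, the fold enrichments of the 2 proteins overlapped.

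Over the 56 loci the distance past the gene end was 4 to 4935 nt, with a median of 729.5 nt, and the gene was a processed pseudogene at 20 loci and protein-coding at 14. Of the 12 loci within 100 nt, 9 followed a processed pseudogene, and of the 26 loci more than 1000 nt away 4 did. Hspd1-ps3, a copy of the mitochondrial chaperonin gene, had a peak 82 nt past its end (chr11:41500516-41500700, plus strand) with 6.16, 16.0, 12.1 and 17.7 fold, and RefSeq drew the pseudogene long enough to hold it. The same was true of the loci 39 nt past Gm5559 (chr5:95862717-95862894, plus strand), with 13.5, 13.7, 11.8 and 11.2 fold, and 4 nt past Gm10123 (chr9:96896136-96896296, plus strand), with 12.2, 13.1, 14.9 and 8.30 fold. A locus that began between the small Cajal body RNA genes Gm23119 and Scarna17 (chr18:74778303-74778485, minus strand) had 18.2, 14.8, 10.1 and 11.4 fold. It ran into Scarna17, and 79 nt of its leading intergenic peak lay in that gene. There and at Gm5559 both Flag-MBD5 values were above both Flag-MBD6 values, and at Hspd1-ps3 and Gm10123 they overlapped.

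Protein-coding genes with a downstream peak included Ncl, which encodes nucleolin, Trmt5 and Nsun6, which encode tRNA methyltransferases, and Slc25a40 and Mlkl. None of these had such a peak in a Flag-MBD5 library, and Ncl, Trmt5 and Nsun6 had one in 1 Flag-MBD6 library each. Their peaks were between 5.02 and 8.69 fold, with 7 to 14 reads at the summit. The Flag-MBD6 libraries were the deeper ones. Of the loci of all other peaks in both Flag-MBD6 libraries, 33.2% also had no Flag-MBD5 peak. RefSeq models of Trmt5 and Nsun6 reached far enough to hold the peak, and the peak past Mlkl began in the RefSeq pseudogene Gm6014. Beyond the window of 5 kb, Rif1, which encodes a replication-timing factor, had a peak 6001 nt past its end (chr2:52128150-52128616, plus strand) with 9.24 and 6.86 fold with Flag-MBD5 against 18.7 and 24.4 fold with Flag-MBD6. Its summit held 11, 8, 36 and 50 reads. A second locus followed 6543 nt past the gene end (chr2:52128911-52129198), with no peak in the first Flag-MBD5 library, 5.34 fold in the second and 11.7 and 20.1 fold for Flag-MBD6. Scaled to depth, the reads of the first Rif1 locus were higher by 1.07 on the log2 scale in the Flag-MBD6 libraries, the highest such value of the 76 loci with peaks in all 4 libraries. In all, 26 loci of the rest lay up to 15 kb past the end of a protein-coding gene.

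The antisense loci lay mostly opposite introns of protein-coding genes. Of the 96 loci, 81 lay opposite protein-coding genes alone and 7 opposite lincRNA genes alone, and 39 of the 193 antisense peaks had their position opposite an exon. The leading locus was opposite an intron of Arhgap21 (chr2:20899924-20900166, plus strand). Its fold enrichment was 47.3 and 37.7 with Flag-MBD5 against 27.6 and 26.4 with Flag-MBD6, with 72, 61, 45 and 47 reads. Although the Flag-MBD6 libraries were the deeper ones, they had fewer reads here, and the depth-scaled reads fell by 1.63 on the log2 scale from Flag-MBD5 to Flag-MBD6, the lowest value of the 76 loci.

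Loci opposite Sspn and Atf2 showed the same order with smaller differences. The locus opposite Sspn (chr6:145932703-145933009, minus strand) had 28.1, 26.2, 19.5 and 18.5 fold, and that opposite Atf2, a gene for a stress-responsive transcription factor (chr2:73867871-73868064, plus strand), had 21.6, 23.6, 19.2 and 17.2 fold. At both, the Flag-MBD5 values were above the Flag-MBD6 values without overlap. Opposite Pecam1, which encodes an endothelial adhesion protein, the locus (chr11:106725278-106725462, plus strand) had 21.2, 31.5, 22.1 and 23.6 fold with 97, 98, 119 and 139 reads, and the proteins overlapped. It began in the RefSeq pseudogene Gm51950. The locus opposite Gm38256 (chr1:158078807-158078977, minus strand), in the RefSeq pseudogene Gm51855, had 19.1, 24.5, 25.6 and 33.3 fold, with both Flag-MBD6 values above both Flag-MBD5 values, but a depth-scaled log2 ratio of −0.34. RefSeq gave no strand for either pseudogene in the table used.

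Antisense members with exonic hosts included loci on chromosomes 2 and 17 and on the mitochondrial chromosome. On chromosome 2, 3 loci lay opposite Gm10800 and Gm10801, all in Flag-MBD6 libraries alone, at 7.56 to 13.8 fold. The transcript stretch opposite the strongest was 98.5% identical to Gm26870 over 131 nt. As background, the printed letters resemble the unit of the mouse major satellite, a pericentromeric repeat, but no repeat annotation was used. On chromosome 17 the locus opposite the ribosomal RNA gene CT010467.1 (chr17:39846620-39846799, plus strand) held 190, 176, 208 and 183 reads, although the authors had removed ribosomal RNA reads, and its fold enrichment was only 5.31, 4.96, 4.67 and 4.11. It began in the RefSeq pseudogene Rn18s-rs5, whose strand was not given, so it may be antisense to one model and sense to the other. The mitochondrial chromosome had 4 loci, 3 of them opposite mt-Nd5 and mt-Nd6, which encode subunits of respiratory complex I. All 4 were found in Flag-MBD6 libraries alone, at 2.74 to 3.73 fold.

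Leading loci of the rest that did not run into a GENCODE gene lay far past the nearest same-strand gene end. At chr11:109011692-109011942 (minus strand), 55057 nt past the snRNA gene Gm24149, the fold enrichment was 54.0 and 61.5 with Flag-MBD5 against 45.1 and 26.9 with Flag-MBD6. Its summit held 138, 138, 132 and 143 reads. The locus at chr1:102628079-102628328 (minus strand), 325102 nt past the snoRNA gene Gm22034, had 30.3, 33.1, 23.0 and 38.3 fold with 65, 60, 67 and 79 reads. A locus in the RefSeq pseudogene Gm6476 (chr17:74487830-74488007, plus strand), 1648 nt before the start of Yipf4, had 19.3, 22.4, 24.2 and 22.5 fold. The distance to the nearest same-strand gene end was 5114 to 1134368 nt over the 175 loci of this class that had one, with a median of 53184 nt.

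The loci with the most reads had nearly the same number in each library. The locus with the most (chr16:11143950-11144216, plus strand), opposite Zc3h7a and running into Gm23935, a miRNA model whose 57 nt in the peak are identical to Gm24245, held 399, 412, 426 and 408 reads at 5.73, 5.66, 5.60 and 4.38 fold. A locus at chr8:15519884-15520080 (plus strand) held 265, 262, 237 and 238 reads at 23.2, 19.6, 16.1 and 12.5 fold, and 1 at chr15:86194870-86195212 (plus strand), 7737 nt past Gm15569, held 131, 130, 103 and 100 reads. Neither had an annotated gene at its position. Identical reads had been collapsed before mapping, and peak calling also limited how many reads at the same position were kept. These are thus numbers of different reads under that limit, and their rise with depth can level off.

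Depth-scaled reads had a lower median for Flag-MBD6 at intergenic loci. Over the 76 loci with a peak in all 4 libraries the log2 of Flag-MBD6 over Flag-MBD5 had a median of −0.89 and ranged from −1.63 to 1.07. Over 3490 loci of all other peaks found in all 4 libraries the median was −0.33. The 2 medians were not built alike. The 76 loci took the reads of the overlapping peak with the highest fold enrichment, genic peaks included, and 63 had intergenic peaks in all 4 libraries. The other loci took the highest reads among merged genic peaks. Between replicates the medians at the 76 loci were −0.06 for Flag-MBD5 and −0.11 for Flag-MBD6, with an SD of 0.32 and 0.29 over loci. In loci with fewer than 20 reads in the first Flag-MBD5 library the median was −0.52 at 32 members and −0.14 at 1740 others, and at 80 reads or more it was −1.05 at 9 members and −0.66 at 166 others. The direction of this gap was the same in the bins between. A log2 depth ratio of 1.10 is contained in the scaling, so a locus with equal reads in all libraries scores the negative of that ratio. The part that collapsing and the limit on reads at the same position play was not tested.

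Loci found for 1 protein alone were mostly those of the deeper libraries. Of the 330 loci, 93 had a peak in both Flag-MBD5 libraries and 154 in both Flag-MBD6 libraries, and 76 had both. Peaks in both Flag-MBD5 libraries and in no Flag-MBD6 library were found at 8 loci, and the reverse at 60. Counted by intergenic peaks alone, 60 of 144 loci in both Flag-MBD6 libraries had none with Flag-MBD5, which is 41.7%, against 2433 of 7327 loci of all other peaks, or 33.2%. In the other direction it was 9 of 82 loci, or 11%, against 146 of 3877, or 3.77%. Intergenic loci with a genic peak in another library count as without one here. With the same number of peaks taken from each library, by the lowest q value, the loci in both libraries of a protein numbered 89 for Flag-MBD5 and 83 for Flag-MBD6. Besides n-THgtg7, the best of the 8 lay at chr13:30584869-30585020 (minus strand), with 13.6 and 9.48 fold, and chr13:113722974-113723138 (plus strand), with 8.81 and 8.59 fold, both without an annotated gene, and opposite Sfxn1 and P2rx6, with 7.11 to 8.77 fold. These 5 loci had 8 to 16 reads.

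Among the loci found for Flag-MBD6 alone, 5 were taken by the same rule from the longer list of 60. Opposite Stag1, which encodes a cohesin subunit (chr9:100941451-100941774, minus strand), the fold enrichment was 27.9 and 30.8 with 43 and 48 reads. It was 20.3 and 22.6 at chr4:92106870-92107047 (minus strand), 37297 nt past Izumo3, and 19.2 and 18.9 opposite Sntg1 (chr1:8936556-8936756, plus strand). Past the end of Tsix, the antisense RNA of the X-inactivation centre, a locus 288 nt downstream (chrX:103485219-103485433, plus strand) had 16.8 and 17.7 fold and began in the RefSeq pseudogene Gm14861. In the imprinted cluster of chromosome 12, a locus 4458 nt past Mir673 (chr12:109576523-109576841, plus strand) had 15.2 and 20.5 fold. At each of these 5 loci both Flag-MBD6 libraries had at least 26 reads, and neither Flag-MBD5 library had a peak.

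Part of the loci found for Flag-MBD6 lay beside clustered genes. Between positions 174966125 and 177778143 of chromosome 2, where Gm14444, Gm14403, Gm14322 and similar genes stand, there were 10 loci, singled out after their values were seen. Of these, 8 had a peak in both Flag-MBD6 libraries, 2 in 1, and none had one in a Flag-MBD5 library. They are not independent places. Those at 174966125, 174966887 and 174967338 began in the RefSeq lncRNA Gm40017, and those at 177308442 and 177379915 in the RefSeq pseudogene Gm14412. Those at 177777507 and 177777957 lay past Gm14322. The peaks of the 10 loci held 10 to 30 reads, and the Flag-MBD6 libraries were the deeper ones. Of all intergenic loci in both Flag-MBD6 libraries, 41.7% had no intergenic Flag-MBD5 peak. Among loci of all other peaks the share was 33.2%. The fold enrichment of the 10 loci was between 6.91 and 17.4. Past the GENCODE ends of the zinc finger genes Zfp758 and Zfp942 on chromosome 17, 3 loci had 7.45 to 9.93 fold, also in Flag-MBD6 libraries alone. The loci past Zfp758 began in the RefSeq model of that gene, which reached far enough to hold them. In all, 7 loci lay within 15 kb past a gene named Zfp. Besides the 3 past Zfp758 and Zfp942 and the pair past Zfp42 they were 1 past Zfp784, in the first Flag-MBD6 library at 5.57 fold, and 1 past Zfp672, in the first Flag-MBD5 library at 6.67 fold. The locus past Zfp784 was of the antisense class, opposite Zfp865 and Ccdc106. The locus past Zfp672 overlapped the leucine tRNA gene n-TLcaa3 and is also among the tRNA loci above. The share of other peaks near such genes was not computed.

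The share of peaks called again in the other replicate rose with their strength among members as among other peaks. Of all members, 69.9% (95% Wilson interval 66.3% to 73.2%) overlapped a peak of the other library of the same protein, against 78.6% (78.1% to 79.1%) of other peaks. With 10 to 19 reads at the summit the shares were 61.7% (56.1% to 67.0%) and 66.7% (65.9% to 67.5%), and these intervals overlapped. With 20 to 39 reads they were 89.2% (83.4% to 93.2%) and 94.0% (93.5% to 94.5%), and with 40 reads or more 95.9% (90.7% to 98.2%) and 99.5% (99.3% to 99.7%), where the intervals of members lay below those of other peaks. Peaks of a locus and of a protein are not independent of each other, so these intervals are too narrow. The share of members was 4.01% (3.27% to 4.91%) among peaks of fewer than 10 reads and 1.70% to 2.49% in the stronger bins.

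**Figure D5:**
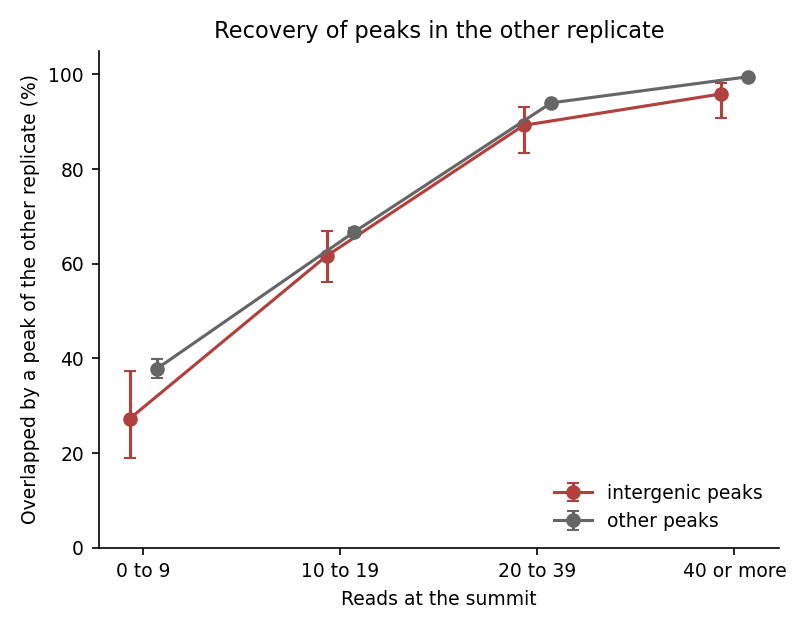
Percent of peaks that a peak of the other replicate overlapped (vertical axis) by the number of reads at the summit (horizontal axis), for intergenic and other peaks of all 4 libraries, with 95% Wilson intervals. Both rise together, from 27.3% and 37.9% below 10 reads to 95.9% and 99.5% at 40 reads or more.

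The base before the 5′ end could be read for few members. Of 49 member peaks with a known base before the 5′ end, 31 had G, which is 63.3% (95% Wilson interval 49.3% to 75.3%), and 10 had C. Among 27094 other peaks 75.1% (74.5% to 75.6%) had G, and the intervals overlapped. A came before 6 of the 49 members, which is 12.2% (5.73% to 24.2%), against 1.87% (1.72% to 2.04%) of other peaks, and these intervals did not overlap. Peaks of a locus are not independent, so the intervals over peaks are too narrow. With 1 peak per locus A came before 3 of 25 members, or 12% (4.17% to 30.0%). These 49 peaks are 7.35% of the members and lie at exons of the opposite strand, gene starts or promoters, so they do not stand for the members as a whole.

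None of the genes looked up had an intergenic member. The list held Tet2, Asxl1, Bap1, Mbd5, Mbd6, Nsun2, Pspc1, Malat1, Neat1, Xist, Rn7sk, Rmrp and Rpph1 and 70 replication-dependent histone genes. At these genes 0 of the 667 members lay antisense or within 5 kb downstream, which says only that no such peak passed the threshold at this depth.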

How the data were processed

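Per the study's methods, the authors merged duplicate reads, discarded those from ribosomal RNA and mapped the others to mm10 with bowtie 1.0.0, which kept 1 place for a read with up to 10 equally good ones and dropped reads with more. Each strand, separated with SAMtools 1.16.1, was passed to MACS2 for peaks at q under 0.01. A MACS2 setting limited how many reads at the same position were kept. The deposited score is 10 times the −log10 q, the deposited fold enrichment is a ratio over local background, and further columns deposited by the authors hold −log10 p-values and −log10 q-values. The summit is another deposited column, a distance from the peak start.

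Reads at each summit were solved from fold enrichment and −log10 p as the whole number and Poisson rate that give both, which succeeded for 100% of peaks within a relative error of 0.0001. The lowest rate times 130000000 over 150 bp gave the depth. Peaks were placed by the base 15 nt inside the 5′ end. Members that overlapped by 1 bp or more on a strand formed a locus, and a locus counted for a library when any peak of it overlapped. The fold enrichment and reads of a locus are those of the overlapping peak with the highest fold enrichment, member or not. Distances run from that base. Sequence came from GENCODE transcripts and RefSeq promoter windows (GRCm38.p6), the latter equal to exon sequence in 704 of 704 windows compared on chromosome 19, and was aligned with BLAST+ 2.17.0 (e-value of 1e-05 or less). No genome sequence or repeat annotation was used here, so retrotransposons were not analysed. Scripts (Python 3.11.15) were tested on simulated data.

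Named loci were, per class, the 6 with a peak in all 4 libraries and the best mean rank of fold enrichment, per protein the 5 best found in both its libraries and in none of the other protein, and the 5 with the most summit reads. Other loci named in the text were chosen after their values were seen. The members and lists were chosen with earlier results of these data known. The alternatives covered the position, q, a fold minimum, equal numbers of peaks, gene sets, strand, chromosomes, the downstream window, the order of classes, the overlap, 1 peak per locus and leaving out each library, and RefSeq genes were added as an alternative after the data had been seen.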

Additional observations from a re-analysis of the deposited data

How the results depend on the processing

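The position within the peak and the gene set decided how many peaks were intergenic, and the class shares followed the window. No test was run on these values, so an alternative is given when it left the 95% counting interval, took a median fold outside the mean ± 1 SD of the replicates' medians or changed a count by over 1.5 times, and 26 of 107 recomputed values did so. The share of intergenic peaks in Flag-MBD5 and Flag-MBD6, 2.36% and 2.20%, was 3.65% and 3.24% by the peak midpoint, 3.43% and 3.09% by the summit, 2.01% and 1.98% when no base of the peak might touch a same-strand gene, 11.9% and 10.3% with protein-coding and lncRNA genes only, 1.62% and 1.59% with gene bodies of either strand, and 1.55% and 1.42% with RefSeq genes added. Equal numbers of peaks gave 1.86% for Flag-MBD6, with 213 loci in place of 330 and 83 reproducible Flag-MBD6 loci in place of 154, as fewer peaks enter. With RefSeq added there were 211 loci, 58 reproducible for Flag-MBD5 and 97 for Flag-MBD6. The median fold was 10.6 and 10.3 with protein-coding and lncRNA genes only and 10.3 for Flag-MBD5 with gene bodies of either strand, where the cause was not tested. The downstream share was 11.7% with a window of 2 kb, 23.7% with 10 kb, when the rest was 47.4%, and 20.4% when downstream went before antisense, which was then 23.7%. Leaving out each library gave 280 to 308 loci, 90 to 91 reproducible for Flag-MBD5, 152 to 153 for Flag-MBD6, 2.20% to 2.52% and 2.19% to 2.20% intergenic, 28.2% to 31.1% antisense, 13.1% to 16.6% downstream, 55.0% to 57.1% rest, median folds of 9.69 to 9.99 and 9.42 to 9.83, and 58.8% to 68.3% of 5′ ends after G. The reproducible count of a protein has no value when 1 of its own libraries is left out. No paired analysis was possible because none of these results comes from a test between groups.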
